A study of Homo sapiens with 6 samples.

Results

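The transcription factors of the epithelial-to-mesenchymal transition (EMT), 3 cadherins and vimentin were followed in BT549 cells treated with AS1842856. The set held 10 genes chosen by name: the zinc finger repressors SNAI1 (Snail) and SNAI2 (Slug), the zinc finger and homeodomain repressors ZEB1 and ZEB2, the basic helix-loop-helix factors TWIST1 and TWIST2, the cadherins CDH1 (E-cadherin), CDH2 (N-cadherin) and CDH11 (OB-cadherin), and the intermediate filament gene VIM. All 10 were rows of the 58735-gene count table. BT549 is an established human line of basal-like breast cancer. AS1842856 is a compound that attaches to the forkhead factor FOXO1 and keeps it off DNA. RNA-Seq was performed on 3 libraries of cells given DMSO, the solvent control, and on 3 libraries of cells given AS1842856, each for 48 h, with no genetic change in either group. The sample labels give the dose as 200 nM, whereas the study's methods name a higher concentration, so the dose behind these libraries is uncertain. The groups therefore describe 1 cell line at 1 time and 1 dose.

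In EMT, epithelial cells give up cell-to-cell junctions and apical-basal polarity and take on a motile, spindle-shaped form. The SNAIL and ZEB proteins bind E-box sequences in the CDH1 promoter and recruit corepressors, and the TWIST proteins bind E-boxes as dimers with E-proteins. E-cadherin holds epithelial cells together through catenins. N-cadherin, OB-cadherin and vimentin are the usual products of the mesenchymal state, and basal B breast cancer lines such as BT549 are already mesenchymal before any treatment.

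The libraries held 15289500 to 22981832 counts. Markers of a basal, mesenchymal breast line were present, with 8 of 8 listed genes tested (CD44, EGFR, CAV1, CAV2, MSN, AXL, SPARC and VIM itself), and their summed level was 5660 to 5760 CPM (counts scaled to library size) in DMSO and 4140 to 4220 CPM with AS1842856. All 8 fell, with a median log2 fold change of -0.49, where 28.4% of all tested genes in the series fell. Luminal markers summed to 245 to 246 CPM in DMSO and 155 to 164 CPM with AS1842856. Of the 9 luminal genes, 6 were tested, 5 fell (ERBB2, FOXA1, KRT8, KRT18 and XBP1) and GATA3 rose, where 28.4% of all tested genes fell and 27.6% rose. ESR1, PGR and TFF1 had at most 4 counts in any library. Leukocyte markers summed to 1.18 to 2.28 CPM in DMSO and 3.66 to 4.65 CPM with AS1842856, with CD3E at 0. PTPRC, the pan-leukocyte gene and the only one of that list tested, rose by 1.48 on the log2 scale (edgeR adjusted p = 4.99e-07). Endothelial markers summed to 0.538 to 1.05 CPM and 1.31 to 1.86 CPM, with CDH5 at 0. CD44, AXL and SPARC of the basal list are also among the mesenchymal genes below. KRT8 and KRT18 of the luminal list are also among the epithelial genes below, and CDH5 among the other cadherins. In the fibroblast list, which shares COL1A1, COL3A1, PDGFRA, PDGFRB, FAP, DCN and LUM with the mesenchymal genes below, the sum was 890 to 958 CPM in DMSO and 465 to 506 CPM with AS1842856. Most of that sum was COL1A1, with a mean of 837 CPM in DMSO and 444 CPM with AS1842856. DCN, LUM and PDGFRA had at most 4 counts in any library, and FAP did not pass the test. The part of these markers in the results was not tested. In bulk RNA, fewer cells of a kind and less RNA per cell cannot be told apart.

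Of the 6 EMT factors, 5 rose with AS1842856 and SNAI1 fell. CDH2, CDH11 and VIM fell, and CDH1 was not detected above 1 count. Of the 10 genes, 9 had enough counts to be tested, and all 9 of those passed the threshold of 0.05 for the adjusted p of edgeR's quasi-likelihood test, against 56.0% of the 14338 genes tested in the series. The rises numbered 5, where 27.6% of all tested genes rose, and the falls numbered 4, where 28.4% fell. The 3 libraries of one group lay wholly above or below the 3 of the other for all 9, which was so for 59.9% of all tested genes. The median absolute log2 fold change was 0.40 over the 9 and 0.26 over all tested genes. An absolute log2 fold change of 1 or more was seen in SNAI1 alone of the 9 and in 10.7% of tested genes. SNAI1 was also the least counted of the 9.

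**Figure D1:**
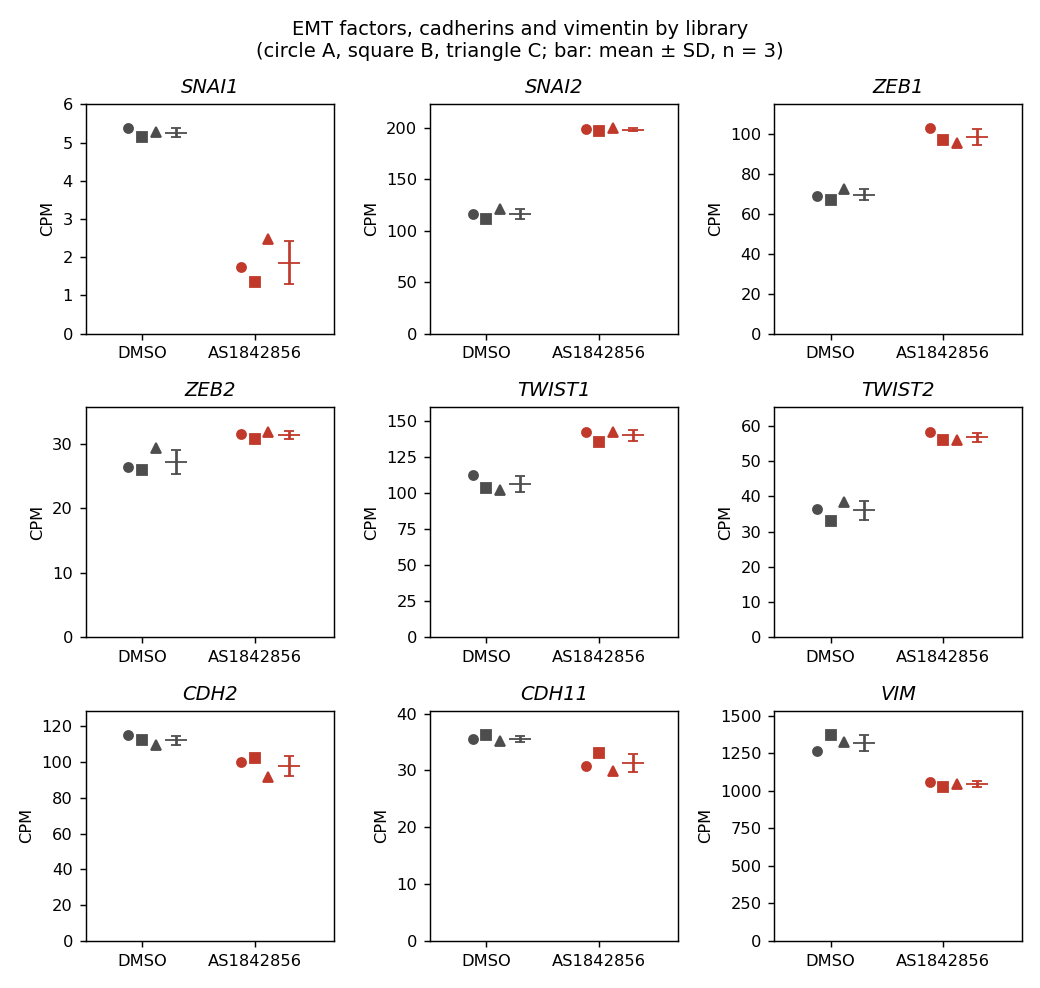
CPM of the 9 tested genes (vertical axes, starting at 0) in each of 3 DMSO libraries (grey) and 3 AS1842856 libraries (red), with the mean and SD beside the points. The red points lie above the grey ones for SNAI2, ZEB1, ZEB2, TWIST1 and TWIST2 and below them for SNAI1, CDH2, CDH11 and VIM.

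The Snail relatives moved in opposite directions. SNAI1 (ENSG00000124216; GRCh38 chromosome 20, 49982999 to 49988886, plus strand) encodes the labile repressor that often acts first in EMT. It had 118, 79 and 98 counts in DMSO libraries A, B and C and 29, 31 and 44 counts in AS1842856 libraries A, B and C. On the CPM scale these were 5.37, 5.14 and 5.27 in DMSO and 1.74, 1.36 and 2.47 with AS1842856. The DMSO libraries lay close together, while the AS1842856 libraries, with C the highest, spread more widely but all stayed below them. SNAI1 fell 2.88-fold, from 5.26 ± 0.116 to 1.85 ± 0.564 CPM (mean ± SD, n = 3), with a log2 fold change of -1.53 (SE 0.21) and an edgeR adjusted p of 2.32e-11. Among all tested genes, 5.09% had a larger absolute log2 fold change.

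SNAI2 (ENSG00000019549; chromosome 8, 48917604 to 48921740, minus strand) encodes Slug, the paralog linked to basal mammary cells. Its counts were 2555, 1707 and 2251 in DMSO libraries A, B and C and 3309, 4491 and 3560 with AS1842856. That is 116, 111 and 121 CPM against 199, 197 and 200 CPM, so each treated library was far above each control. SNAI2 rose 1.7-fold, from 116 ± 5.0 to 198 ± 1.49 CPM (n = 3), with a log2 fold change of 0.77 (SE 0.04) and an edgeR adjusted p of 3.97e-49. This was the largest rise of the 9 tested members, and 15.5% of tested genes changed by more.

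Both ZEB genes rose, ZEB1 by more than ZEB2. ZEB1 (ENSG00000148516; chromosome 10, 31318495 to 31529814, plus strand) encodes a repressor held down in epithelial cells by the miR-200 family. It had 1521, 1032 and 1350 counts in DMSO libraries and 1717, 2215 and 1701 with AS1842856, or 69.3, 67.2 and 72.7 CPM against 103, 97.0 and 95.4 CPM. The groups were well apart, and ZEB1 rose 1.41-fold (log2 0.50, SE 0.05, edgeR adjusted p = 5.76e-20). ZEB2 (ENSG00000169554; chromosome 2, 144364364 to 144524583, minus strand), its paralog, had 579, 398 and 546 counts in DMSO and 526, 702 and 568 with AS1842856. These were 26.4, 25.9 and 29.4 CPM and 31.6, 30.7 and 31.9 CPM, so DMSO library C came within a short distance of the treated libraries. ZEB2 rose 1.15-fold (log2 0.20, SE 0.07, edgeR adjusted p = 0.0131), but this call was lost without DMSO library A (adjusted p = 0.0648) or without DMSO library B (adjusted p = 0.0692), and under DESeq2 (adjusted p = 0.0679).

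ZEB1 has many annotated start sites and was the member with the most promoter windows. RefSeq promoter windows of GRCh38.p14, each of 300 bases from 250 before to 50 after a start, were found for 5 of the 10 genes, as 7 windows of ZEB1, 2 of CDH2 and 1 each of ZEB2, TWIST2 and VIM. The 12 windows were searched on both strands for the letters CACCTG, the E-box bound by the SNAIL and ZEB proteins, for any E-box CANNTG, which covers the first, and for GTAAACA, the forkhead motif. CACCTG or its reverse complement stood in 2 of the 12 windows, both of ZEB1, and in 20.6% of all 35116 windows in the table. GTAAACA or its reverse complement stood in 1 of the 12, again of ZEB1, and in 3.42% of all windows. An E-box of any kind stood in 6 of the 12 and in 68.7% of all windows. A pair of ZEB1 windows is printed because they hold most of these matches, on the plus strand 5′ to 3′, with CACCTG or CAGGTG in capitals in the first and GTAAACA followed directly by TGTTTAC in capitals in the second.
ZEB1, chr10:31318966-31319265: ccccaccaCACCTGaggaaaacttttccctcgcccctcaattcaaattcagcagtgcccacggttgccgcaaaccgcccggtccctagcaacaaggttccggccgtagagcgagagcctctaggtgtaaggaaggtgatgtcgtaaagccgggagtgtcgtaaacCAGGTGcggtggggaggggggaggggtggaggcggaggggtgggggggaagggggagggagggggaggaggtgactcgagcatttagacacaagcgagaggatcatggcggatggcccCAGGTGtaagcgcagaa
ZEB1, chr10:31321410-31321709: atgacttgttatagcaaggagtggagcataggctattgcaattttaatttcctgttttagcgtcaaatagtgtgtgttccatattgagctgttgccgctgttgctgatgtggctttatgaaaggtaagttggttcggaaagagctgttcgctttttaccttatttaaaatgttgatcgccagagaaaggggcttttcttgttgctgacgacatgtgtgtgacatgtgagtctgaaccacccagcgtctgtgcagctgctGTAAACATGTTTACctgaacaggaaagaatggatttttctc
The matches of the first window begin at bases -242, -85 and 34 from the start at 31319216, and those of the second at bases 10 and 17 from the start at 31321660. The letters are a description of the sequence, and no binding was measured here.

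The TWIST genes rose too, TWIST2 from a lower level and by a larger factor. TWIST1 (ENSG00000122691; chromosome 7, 19020991 to 19117672, minus strand), a factor of mesoderm and neural crest, had 2470, 1589 and 1901 counts in DMSO and 2373, 3089 and 2535 with AS1842856. In CPM these were 112, 104 and 102 against 142, 135 and 142, with no overlap. TWIST1 rose 1.32-fold (log2 0.40, SE 0.04, edgeR adjusted p = 6.11e-17). TWIST2 (ENSG00000233608; chromosome 2, 238848032 to 238910543, plus strand), a close paralog expressed in dermal and bone precursors, had 802, 507 and 714 counts in DMSO and 971, 1277 and 996 with AS1842856. Its CPM were 36.5, 33.0 and 38.4 against 58.3, 55.9 and 55.9, again with every treated library above every control. TWIST2 rose 1.57-fold (log2 0.65, SE 0.06, edgeR adjusted p = 2.67e-21).

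E-cadherin was close to absent from both groups. CDH1 (ENSG00000039068; chromosome 16, 68737225 to 68835548, plus strand) had 0, 0 and 1 counts in DMSO libraries A, B and C and 0 in each AS1842856 library. It did not pass the filter on low counts and was not tested. A count of 0 allows up to 3 counts, which was 0.131 to 0.196 CPM in a single library and 0.0522 CPM over the AS1842856 libraries together, by counting error only. A rise of CDH1 above that level was thus not seen, and a difference below it was not detectable at this depth.

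The mesenchymal cadherins fell slightly. CDH2 (ENSG00000170558; chromosome 18, 27950966 to 28177446, minus strand) had 2523, 1721 and 2036 counts in DMSO and 1667, 2333 and 1634 with AS1842856, or 115, 112 and 110 CPM against 100, 102 and 91.6 CPM. The treated libraries were all lower, and CDH2 fell 1.14-fold (log2 -0.19, SE 0.04, edgeR adjusted p = 5.46e-05). CDH11 (ENSG00000140937; chromosome 16, 64943753 to 65126112, minus strand), a cadherin of osteoblasts and stromal cells, had 781, 555 and 652 counts in DMSO and 514, 753 and 534 with AS1842856. Its CPM were 35.6, 36.1 and 35.1 against 30.8, 33.0 and 29.9, a small gap with no overlap. CDH11 fell 1.14-fold (log2 -0.18, SE 0.07, edgeR adjusted p = 0.0167), and this call was lost without AS1842856 library C (adjusted p = 0.082) and under DESeq2 (adjusted p = 0.0742).

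Vimentin was the most abundant of the 10 and fell. VIM (ENSG00000026025; chromosome 10, 17228259 to 17237593, plus strand) had 27805, 21037 and 24690 counts in DMSO and 17710, 23434 and 18685 with AS1842856. This came to 1266, 1370 and 1329 CPM in DMSO and 1063, 1026 and 1048 CPM with AS1842856. The lowest control was above the highest treated library, and VIM fell 1.26-fold (log2 -0.34, SE 0.03, edgeR adjusted p = 2.84e-20). It made up 0.132% of all counts in DMSO and 0.104% with AS1842856.

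**Figure D2:**
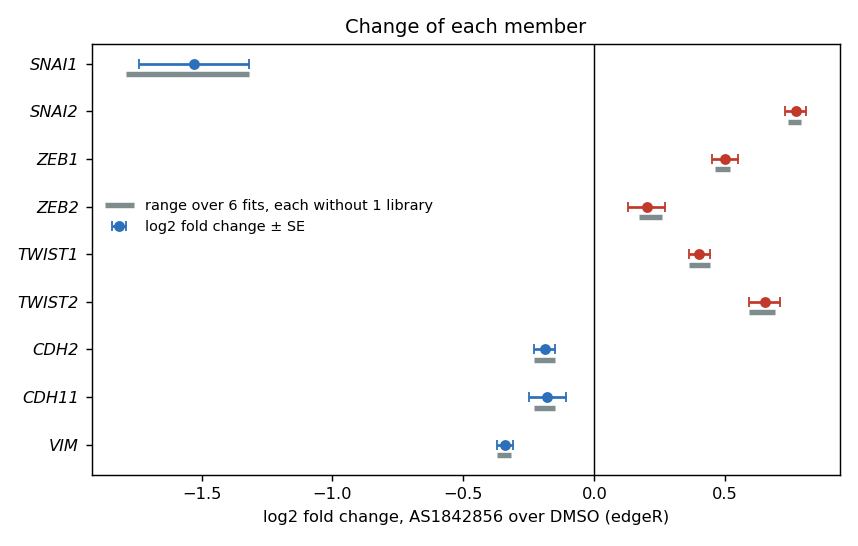
Log2 fold change of each tested gene, AS1842856 over DMSO, from edgeR (points, red for rises and blue for falls, with SE bars), above a grey bar that spans 6 fits with 1 library left out in each. No grey bar crosses 0, and the bar of SNAI1, from -1.79 to -1.32, is the widest.

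The plot of changes sets these sizes side by side. In the fits without 1 library, the log2 fold change of SNAI2 stayed between 0.74 and 0.79, that of ZEB2 between 0.17 and 0.26, and that of CDH11 between -0.23 and -0.15. The direction held for each of the 9 genes in all 6 fits.

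Whether paralogs moved by different amounts was asked with the log2 ratio of their counts within each library, which does not depend on scaling. The SNAI1 to SNAI2 ratio was -4.43, -4.42 and -4.51 in DMSO and -6.81, -7.16 and -6.32 with AS1842856, a 4.94-fold shift toward SNAI2. The ZEB1 to ZEB2 ratio went from 1.36 ± 0.05 to 1.65 ± 0.06 and the TWIST1 to TWIST2 ratio from 1.56 ± 0.13 to 1.30 ± 0.04 (mean ± SD, n = 3), each without overlap. In words, ZEB1 rose more than ZEB2, and TWIST2 rose more than TWIST1. An exact two-sided permutation test of the 20 relabelings gave p = 0.1 for each of these 3 ratios, which is the smallest p that 3 libraries against 3 allow (0.133 after Benjamini-Hochberg adjustment over 4 pairs), so this test cannot pass 0.05 here. The CDH2 to CDH11 ratio was 1.65 ± 0.03 and 1.65 ± 0.04, and its libraries overlapped (exact permutation p = 0.7, difference -0.01, range -0.03 to 0.01 with 1 library left out). A CDH2 to CDH1 ratio was not formed, since CDH1 was not tested.

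**Figure D3:**
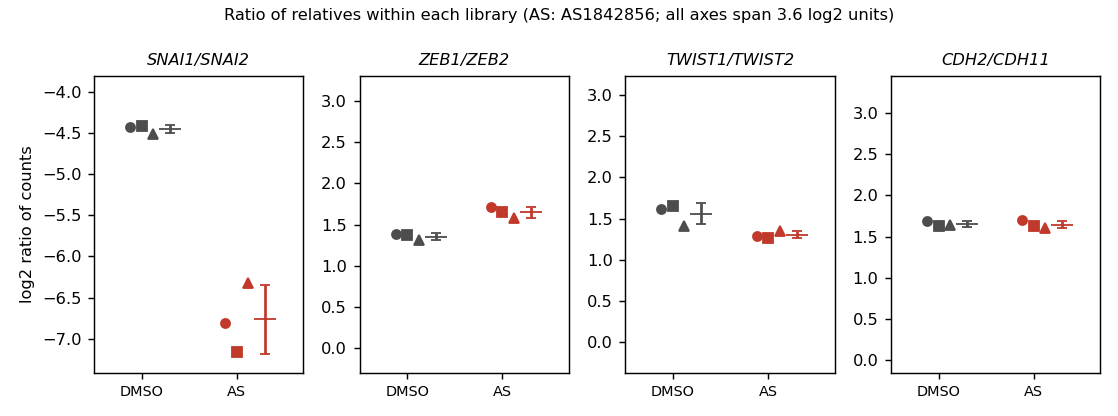
Log2 ratio of the counts of 2 relatives within each library (points, circle A, square B, triangle C), with mean and SD, for DMSO (grey) and AS1842856 (red); all 4 vertical axes have the same span. The SNAI1 to SNAI2 ratio drops by 2.31, the ZEB and TWIST ratios move by 0.29 and -0.26, and the cadherin ratio stays at 1.65.

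Levels between genes were compared per length, as FPKM (fragments per kilobase of exon, scaled to library size). In DMSO the order was VIM 255, TWIST1 51.9, SNAI2 34.0, CDH2 22.5, TWIST2 19.0, ZEB1 8.01, SNAI1 3.10, CDH11 2.64 and ZEB2 1.08 FPKM, and no neighbours overlapped in their libraries. With AS1842856 it was VIM 201, TWIST1 68.4, SNAI2 58.1, TWIST2 30.0, CDH2 19.7, ZEB1 11.3, CDH11 2.32, ZEB2 1.24 and SNAI1 1.09 FPKM, where only ZEB2 and SNAI1 overlapped. On the FPKM scale TWIST2 thus passed CDH2, and SNAI1 dropped from above CDH11 to a range that overlapped ZEB2. The FPKM values used the joined length of all annotated exons, which is long for some genes (25058 bases for ZEB2 and 5158 for VIM). Per kilobase of the principal transcript (9541 bases for ZEB2 and 1868 for VIM), a comparison added after the values were seen, ZEB2 came to 2.85 and SNAI1 to 3.12 CPM per kilobase in DMSO, below CDH11 at 5.19. With AS1842856, SNAI1 came to 1.1 ± 0.334 and ZEB2 to 3.29 ± 0.0603 CPM per kilobase (n = 3), without overlap. The order of the 6 highest genes by mean was the same on that scale in each group, but some libraries then overlapped. In DMSO the libraries of CDH2 (25.3 to 26.5) overlapped those of TWIST2 (23.5 to 27.4), and those of SNAI1 overlapped those of ZEB2. With AS1842856 the libraries of TWIST1 (81.21 to 85.47) overlapped those of SNAI2 (81.01 to 82.21).

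**Figure D4:**
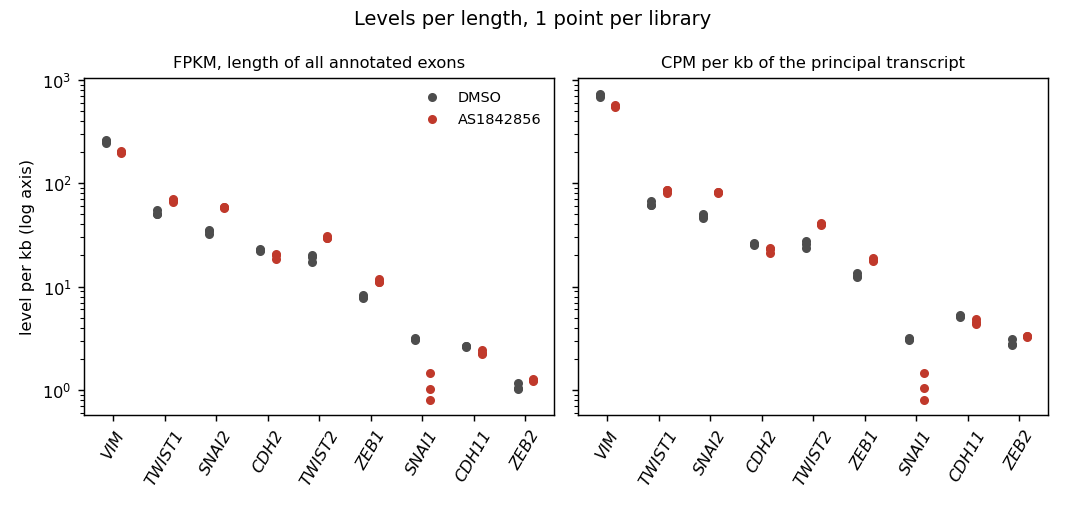
Level per kilobase of the 9 tested genes (log axis), 1 point per library, DMSO in grey and AS1842856 in red, as deposited FPKM (left) and as CPM per kilobase of the principal transcript (right). VIM is highest and TWIST1 next by mean on both scales, but on the right the AS1842856 points of TWIST1 overlap those of SNAI2. SNAI1 is the gene with the widest gap between the groups.

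The summed FPKM of the 6 factors was 117 ± 4.41 in DMSO and 170 ± 3.29 with AS1842856 (n = 3). SNAI2 made up 29.1% of that sum in DMSO and 34.2% with AS1842856, and TWIST2 16.2% and 17.7%. The share of SNAI1 went from 2.65% to 0.641% and that of TWIST1 from 44.3% to 40.2%. ZEB1, at 6.84% and 6.65%, overlapped between the groups. TWIST1 and SNAI2 had the largest shares of the 6 in both groups. All these shares rest on the joined length of annotated exons. Per kilobase of the principal transcript, TWIST1 came to 84.0 and SNAI2 to 81.7 CPM per kilobase with AS1842856, with overlapping libraries.

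Some reads could belong to neighbours or copies. ZEB1-AS1, on the opposite strand and sharing 366 exon bases with ZEB1, had 5.37% as many counts as ZEB1 and rose by 0.89 on the log2 scale (edgeR adjusted p = 3.97e-06). Whether counting used strand is not given in the sources used here, so the 2 cannot be fully told apart. The other genes overlapping a tested member had at most 1.73% of its counts. The 50-base words of the transcripts were searched for in the transcripts of other genes, each read in its own direction only. In that direction, 0 of those of SNAI1, SNAI2, ZEB1, TWIST1, TWIST2 and CDH2 occurred in another gene. The share was 0.329% for ZEB2 (in the pseudogene ZEB2P1), 1.54% for CDH11 and 0.173% for VIM. Bases shared with genes on the opposite strand, such as the 366 of ZEB1, could not be found by this search.

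Other genes of the EMT program were read from 7 lists of 149 genes, of which 100 were tested, 27 rose, 59 fell and 14 did not pass the test. Over all tested genes 27.6% rose and 28.4% fell, so the rises in the lists were at the background share. Their median log2 fold change was -0.25, against 0.00 over all tested genes and 0.20 over the 9 tested members. Among 18 other EMT transcription factors, 12 were tested, 7 rose and 3 fell, with a median of 0.33. SOX4, an SRY-box factor, rose from 74.5 ± 6.50 to 308 ± 2.16 CPM (log2 2.04, edgeR adjusted p = 1.06e-118). PRRX1, a homeobox factor of mesenchyme, rose by 1.73 and HMGA2, a chromatin protein, by 1.15 on the log2 scale. ETS1 fell by 0.53 and SOX9 by 0.19 on the log2 scale. SNAI3, FOXC2, FOXQ1, GSC, TBXT and KLF8 had at most 3 counts in any library.

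The cofactors and degraders of the SNAIL, ZEB and TWIST proteins split between both directions. All 20 were tested, 7 rose, 10 fell and 3 did not pass the test, with a median log2 fold change of -0.06. Among all tested genes in the series, 27.6% rose and 28.4% fell. LOXL2, a lysyl oxidase relative that binds Snail, fell from 1678 ± 75.2 to 954 ± 45.5 CPM (log2 -0.81, edgeR adjusted p = 4.93e-62), and ENTPD4, which shares 120 exon bases with it, had 12.2% as many counts. The corepressor genes CTBP2 and SIN3A fell by 0.61 and 0.45 on the log2 scale, and ZRANB1, opposite CTBP2 over 3416 exon bases, had 15.1% of its counts. GSK3B, a kinase that marks Snail for breakdown, rose by 0.27 and the deacetylase gene HDAC2 by 0.22. These are RNA values, and the study reports reduced GSK3β protein in BT549 cells given AS1842856. FBXL14, a ubiquitin ligase subunit for Snail and Slug, rose by 0.82, but it overlaps WNT5B on the opposite strand, with no shared exon bases, and WNT5B had 2250% as many counts and fell by 1.46 on the log2 scale. The study reports a smaller fall of WNT5B from its RNA-Seq data, and the reason for the difference was not tested.

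Of 17 other classical and related cadherins, 5 were tested, 1 rose and 1 fell, where 27.6% of all tested genes rose and 28.4% fell. CDH24 rose from 63.0 ± 2.68 to 87.1 ± 3.46 CPM (log2 0.46, edgeR adjusted p = 7.44e-17). CDH10 fell from 2.78 ± 0.586 to 0.667 ± 0.168 CPM (log2 -2.07, edgeR adjusted p = 1.90e-09). P-cadherin, CDH3, did not pass the test (log2 0.21, edgeR adjusted p = 0.0524), and 12 of the 17 were not tested, with at most 5 counts in any library. Among 13 catenins and other cadherin partners, 10 were tested, 8 fell, 1 rose and 1 did not pass the test, beside the same shares of all tested genes. VCL, the actin linker vinculin, fell by 0.69, AFDN, the junction scaffold afadin, by 0.66 and PKP2, a desmosomal plakophilin at under 2 CPM, by 1.26 on the log2 scale. AP3M1, which shares exon bases with VCL on the opposite strand, had 20.3% of its counts.

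Both the epithelial and the mesenchymal list held more falls than rises, where 28.4% of all tested genes fell and 27.6% rose. Of 35 epithelial genes, 18 were tested, 12 fell and 5 rose, with a median log2 fold change of -0.78 and a summed level of 360 to 384 CPM in DMSO and 177 to 181 CPM with AS1842856. KRT8 fell from 40.9 ± 1.79 to 4.15 ± 0.301 CPM and KRT18, its filament partner, from 33.9 ± 3.47 to 3.45 ± 0.0744 CPM (log2 -3.31 and -3.30, edgeR adjusted p = 2.14e-88 and 2.31e-80); these genes share 525 exon bases on opposite strands. LLGL2, a polarity gene that Snail and ZEB1 are known to repress, fell by 1.89 on the log2 scale. MAL2, KRT19 and the desmocollin gene DSC2 rose by 2.02, 1.61 and 1.60 on the log2 scale, from 0.686, 3.0 and 0.834 CPM in DMSO. EPCAM, GRHL2, ESRP1 and OVOL1 were among 17 genes under the filter. GRHL2 had 0, 1 and 0 counts in DMSO and 8, 7 and 16 with AS1842856, and OVOL1 0, 0 and 0 against 2, 9 and 4. EPCAM had 5, 2 and 8 against 1, 0 and 0, and ESRP1 4, 2 and 2 against 1, 5 and 1. None of these differences was tested in the edgeR fit reported here.

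Of 34 mesenchymal genes, 30 were tested, 22 fell and 5 rose, with a median log2 fold change of -0.70. LOX, a collagen crosslinking enzyme, fell from 209 ± 4.27 to 42.8 ± 2.01 CPM (log2 -2.29), COL1A2 from 1779 ± 80.4 to 388 ± 8.15 CPM (log2 -2.20) and the receptor gene AXL from 423 ± 6.02 to 135 ± 6.13 CPM (log2 -1.65), with edgeR adjusted p of 1.39e-128, 3.14e-152 and 1.29e-115. SRFBP1, opposite LOX over 138 exon bases, had 21.3% of its counts. The matrix genes MMP2, VCAN and TNC rose by 1.93, 1.90 and 1.84 on the log2 scale. Of 12 other intermediate filament genes, 5 were tested. INA, alpha-internexin of neurons, rose from 2.98 ± 0.261 to 15.5 ± 0.849 CPM (log2 2.37). SYNM, LMNB2 and LMNB1 fell by 0.85, 0.62 and 0.35 on the log2 scale, as VIM fell by 0.34, and TIMM13, which shares 257 exon bases with LMNB2, had 24.3% of its counts.

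**Figure D5:**
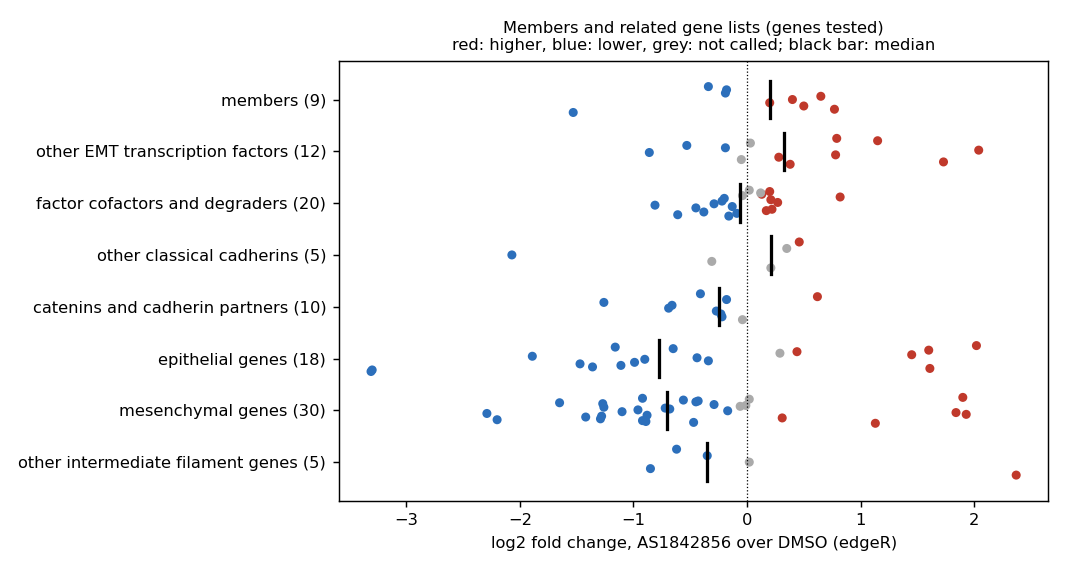
Log2 fold change, AS1842856 over DMSO, of each tested gene of the set and of 7 related lists (points; red rose, blue fell, grey did not pass the test), with the median as a black bar and the number tested in brackets. Other EMT transcription factors have a median of 0.33, epithelial genes -0.78 and mesenchymal genes -0.70.

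Profiles across the 6 libraries were compared with those of 9196 genes by the root mean square difference of log2 CPM after centring. SNAI2, with the largest rise, was closest to SYNPO (0.029), RUNX2 (0.035) and DNAJB1 (0.036), which changed by 0.75, 0.79 and 0.76 on the log2 scale. SNAI1, with the largest fall, was closest to KLF4 (0.079), HOXC12 (0.12) and PLPPR3 (0.12), which changed by -1.29, -1.37 and -1.32. These differences describe 6 libraries in 2 groups, and no test was made of them.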

How the data were processed

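Total RNA of BT549 cells was sequenced in 3 DMSO and 3 AS1842856 libraries. The treatment label is 200 nM for 48 h, whereas the study's methods state 1 μM. The study calls the libraries biological replicates. The submitters' processing notes name CASAVA, Bowtie 0.12.2 and GRCh38/hg38, whereas the study's methods name STAR for mapping, so the aligner is uncertain. The counting tool and its use of strand are not given in the sources used here. The deposited table holds raw counts per gene, not normalised, and the deposited FPKM tables hold counts scaled by library size and by the joined length of annotated exons, made by the authors.

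Counts were fitted with edgeR 4.0.16 (R 4.3.3, TMM, filterByExpr at a count of at least 10 and a total of at least 15, robust quasi-likelihood), with Benjamini-Hochberg adjustment over the 14338 genes tested and a threshold of 0.05. The filter removed 13170 genes that had counts and kept 99.87% of counts. The SE of a log2 fold change was taken from its F value. CPM are counts divided by TMM-scaled library sizes. Exact permutation tests compared within-library ratios, with a prior count of 0.5. Alternatives were DESeq2 1.42.0, other scalings and filters, a replicate block, leaving out each library, and limma 3.58.1 on log2(FPKM + pseudocount). Intervals from a count of 0 cover counting error only.

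Gene symbols and positions come from GENCODE 29, in which all 58735 identifiers were found. Promoter letters come from RefSeq (GRCh38.p14). The members and lists were chosen with earlier results of these data known. From each list, up to 3 genes with the largest rise and 3 with the largest fall were named, among those that passed the test, averaged at least 1 CPM and did not overlap between groups. A few genes that this rule selects are not reported here. The other list genes given were chosen after their values were seen. For the member with the largest rise and that with the largest fall, the 3 closest non-members of at least 10 CPM were named.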

Additional observations from a re-analysis of the deposited data

How the results depend on the processing

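Of the 9 tested members, SNAI1, SNAI2, ZEB1, TWIST1, TWIST2, CDH2 and VIM kept their direction and their call in all 15 alternative fits. ZEB2 lost its call in 6 of them and CDH11 in 5, in both cases under DESeq2 and in the 3 limma fits on FPKM (limma adjusted p of 0.215 to 0.333 for ZEB2 and 0.0657 to 0.149 for CDH11) as well as with certain libraries left out, and neither changed direction; the cause was not tested. The members called numbered 8 to 9 with 1 library left out, where 50.7% to 52.0% of all genes tested were called. Under the other settings they numbered 7 to 9, where 26.1% to 63.7% of all genes tested were called. The fall of SNAI1 ranged from -1.79 to -1.32 with 1 library left out, and was smallest at -0.98 on the log2(FPKM + 1) scale, which compresses low values. Over all genes, 6523 to 8030 were called under the other settings, 7427 to 7678 with 1 library left out, and 7862 with the replicate block, against 8029 without it. The labels do not say whether libraries of the same letter were handled together. The deviations of same-lettered libraries correlated at -0.0634, 0.0158 and -0.0628 over 9204 genes, which cannot settle that question. The block is given only here. It changed no member's call. Of the other classical cadherins, 1 was called in place of 2 in 3 settings (a mean of at least 50 counts and 2 limma fits) and 3 in 3 others (DESeq2 size factors in edgeR, without DMSO A and without AS1842856 A). SNAI1 rests on 29 to 44 counts in each treated library, and CDH1 cannot be followed at this depth.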
